A study of Mus musculus with 20 samples.

Results

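Interferon-stimulated genes are the genes a cell switches on after it detects an interferon, and the 34 examined here span the transcription factors, nucleic acid sensors, antiviral effectors and defence GTPases of that response. They are a list of gene symbols drawn up with earlier results of these data known, and any row with one of these symbols is included whatever its level. All 34 were found among the 56748 genes counted on chow and among the 31184 genes counted on high fat diet (HFD). All 34 also passed the expression filter of every test, and the fewest reads any of them had in a library was 15.

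Interferons are secreted proteins that bind receptors on neighbouring cells. Type I and type III interferons act through the kinases Jak1 and Tyk2 to assemble a complex with Stat2 and Irf9 that binds the interferon-stimulated response element (ISRE), whereas type II interferon, interferon gamma, acts through the gamma-activated site (GAS). In the gut, type III interferon acts mainly on the epithelium, interferon gamma comes mostly from T and NK cells, and a low level of this response is known to be kept up by the resident microbes.

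The libraries were poly-A RNA from mouse colon sections, flushed, frozen and extracted whole, 4 in each of 5 groups. Chow Vill mice lack Pcca, the alpha subunit of the mitochondrial enzyme propionyl-CoA carboxylase, in the intestinal epithelium through Villin-Cre, chow Alb mice lack it in the liver through Albumin-Cre, and chow ff mice are the floxed Pcca controls. HFD Vill and HFD ff mice carry the same alleles as their chow namesakes, went at 6 weeks of age onto a diet in which fat supplies 60% of calories, and stayed on it for 12 weeks. Chow mice were killed at 9 weeks of age and HFD mice at 18 weeks, all after a 4 hour fast. The submitters name the ff mice on both diets as littermates of the Vill mice, and describe the HFD mice as male without giving the sex of the chow mice. Villin-Cre acts in epithelial cells while these libraries also hold muscle, stroma and immune cells, and Albumin-Cre acts in the liver, outside the tissue measured. The questions were whether loss of Pcca in the gut lining, or in the liver, was accompanied by another colonic transcript level, and whether diet altered that. Nothing in the labels says that the 4 libraries of a group come from 4 litters or days, so p-values measure the spread between these libraries.

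Many of the genes carry the binding letters for these factors close to their start. Promoters from 250 bases before to 50 bases after the first transcribed base were taken from RefSeq (GRCm38.p6) and matched 25 of the 34 genes. Not matched were Dhx58, Zbp1, Oas2, Parp14, Rtp4, Usp18, Gbp4, Gbp6 and Iigp1. The ISRE was searched as GAAA, any 2 bases and GAAA again, or on the other strand TTTC, any 2 bases and TTTC, and the GAS as TTCNNNGAA, which reads the same on both strands. Overlapping matches were counted, and a GAS can share letters with an ISRE, as in the tetherin gene Bst2. An ISRE was present in 16 of the 25 matched genes (16 of their 29 promoters, 55.2%) and in 3.44% of all 32851 promoters. A GAS was present in 7 of the 25 genes (24.1% of their promoters) and in 8.3% of all promoters. These matches describe letters and not binding. The stretches below are 80 bases each, 5′ to 3′ on the strand of the gene, shown because they belong to genes whose levels are followed in every library below, or to the GTPase neighbour Igtp that carries both motifs. Capitals mark the matches, which are ISREs except for the GAS in Irf1 and the GAS at the left of the capitals in Igtp and Bst2.
Isg15 (chr4:156200837-156200916, minus strand): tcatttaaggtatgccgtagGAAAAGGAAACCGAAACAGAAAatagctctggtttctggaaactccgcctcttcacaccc
Ifit1 (chr19:34640765-34640844, plus strand): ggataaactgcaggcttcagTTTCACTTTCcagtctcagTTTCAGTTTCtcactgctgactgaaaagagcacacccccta
Ifit3 (chr19:34583353-34583432, plus strand): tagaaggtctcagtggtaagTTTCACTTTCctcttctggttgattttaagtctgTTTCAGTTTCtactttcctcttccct
Oas1a (chr5:120907526-120907605, minus strand): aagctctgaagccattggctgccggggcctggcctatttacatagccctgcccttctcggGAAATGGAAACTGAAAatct
Oas3 (chr5:120777675-120777754, minus strand): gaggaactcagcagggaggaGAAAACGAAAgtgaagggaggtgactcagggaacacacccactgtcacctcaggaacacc
Bst2 (chr8:71537543-71537622, minus strand): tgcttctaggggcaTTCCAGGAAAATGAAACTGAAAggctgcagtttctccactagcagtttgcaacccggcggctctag
Gbp2 (chr3:142620583-142620662, plus strand): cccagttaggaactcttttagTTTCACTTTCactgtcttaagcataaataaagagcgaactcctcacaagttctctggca
Irgm1 (chr11:48871421-48871500, minus strand): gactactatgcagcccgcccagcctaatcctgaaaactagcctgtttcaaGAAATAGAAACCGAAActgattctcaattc
Igtp (chr11:58199476-58199555, plus strand): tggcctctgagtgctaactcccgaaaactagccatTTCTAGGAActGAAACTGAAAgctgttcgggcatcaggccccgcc
Irf1 (chr11:53769904-53769983, plus strand): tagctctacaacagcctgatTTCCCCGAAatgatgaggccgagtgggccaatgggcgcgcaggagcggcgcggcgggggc
The ubiquitin-like modifier Isg15 held 3 overlapping ISREs, the first starting 78 bases before its first transcribed base. Ifit1 and Ifit3 each held 2 separate ISREs, and Oas1a and Irgm1 each held 2 overlapping ones. The transcription factor Irf1 showed a GAS and no ISRE in its window.

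The 34 genes also lie in groups on the chromosomes. In the coordinates of the deposited tables, which the submitters' processing notes place on mm39, Ifit2, Ifit3 and Ifit1 follow each other on chromosome 19 between 34528094 and 34627409. Oasl2 and Oasl1 lie at 115034997 to 115075974 on chromosome 5, and Oas2, Oas3 and Oas1a lie at 120868398 to 121045584 on the same chromosome. Gbp7, Gbp3 and Gbp2 occupy 142236103 to 142343769 on chromosome 3, whereas Gbp4 and Gbp6 lie on chromosome 5. Rsad2 and Cmpk2 are neighbours on chromosome 12, transcribed in opposite directions. How reads shared between such related copies were counted is not given in the sources used here, so differences among the Gbp, Ifit and Oas copies carry that uncertainty.

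Library depth was 27.9 to 40.4 M counted reads on chow and 16.9 to 24.4 M on HFD. Pcca itself was 27.7, 33.6, 29.2 and 29.5 CPM (counts per M counted reads) in chow Vill libraries 1 to 4, 58.3, 38.9, 41.1 and 43.6 in chow Alb and 54.03, 39.5, 57.2 and 40.8 in chow ff, so every chow Vill library lay below every chow ff library. On HFD it was 34.01, 37.3, 33.2 and 33.6 CPM in Vill and 29.9, 53.7, 32.5 and 59.5 CPM in ff, where the libraries labelled ff 1 and ff 3 lay below every Vill library. Those 2 libraries also had the highest summed level of 14 small intestine markers among the HFD libraries, 1696 and 2292 CPM, against 608 to 1087 CPM in HFD Vill and 556 and 896 CPM in the other HFD ff libraries. On chow the same markers summed to 1744 CPM in Vill 1 and 2019 CPM in ff 2, and to between 513 and 1489 CPM in the other 10 libraries. The comparisons between groups and between diets are given with and without these 4 libraries. Colon epithelium markers were at 18605 to 41014 CPM in sum over the 20 libraries, with all 11 markers measured.

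With all 4 libraries of a group, the interferon-stimulated genes differed more from library to library than most genes did. Within chow Vill the standard deviation (SD) of log2 CPM over 4 libraries had a median of 1.11 over the 34 genes, against 0.33 over all tested genes. The medians for the 34 and for all tested genes were 1.14 against 0.32 in chow Alb, 0.89 against 0.31 in chow ff, 1.12 against 0.28 in HFD Vill and 1.02 against 0.30 in HFD ff. Without the libraries rich in small intestine markers, the medians were 1.15 against 0.29 in chow Vill (n = 3), 0.81 against 0.24 in chow ff (n = 3) and 0.11 against 0.17 in HFD ff (n = 2). The wide spread of the list in HFD ff was not seen between ff 2 and ff 4. With all libraries, between 12 and 19 of the 34 genes, depending on the group, lay above the 95th percentile of that SD among genes with at least 1 CPM. In bulk tissue, fewer cells of a responding type and less RNA per cell cannot be told apart.

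**Figure D1:**
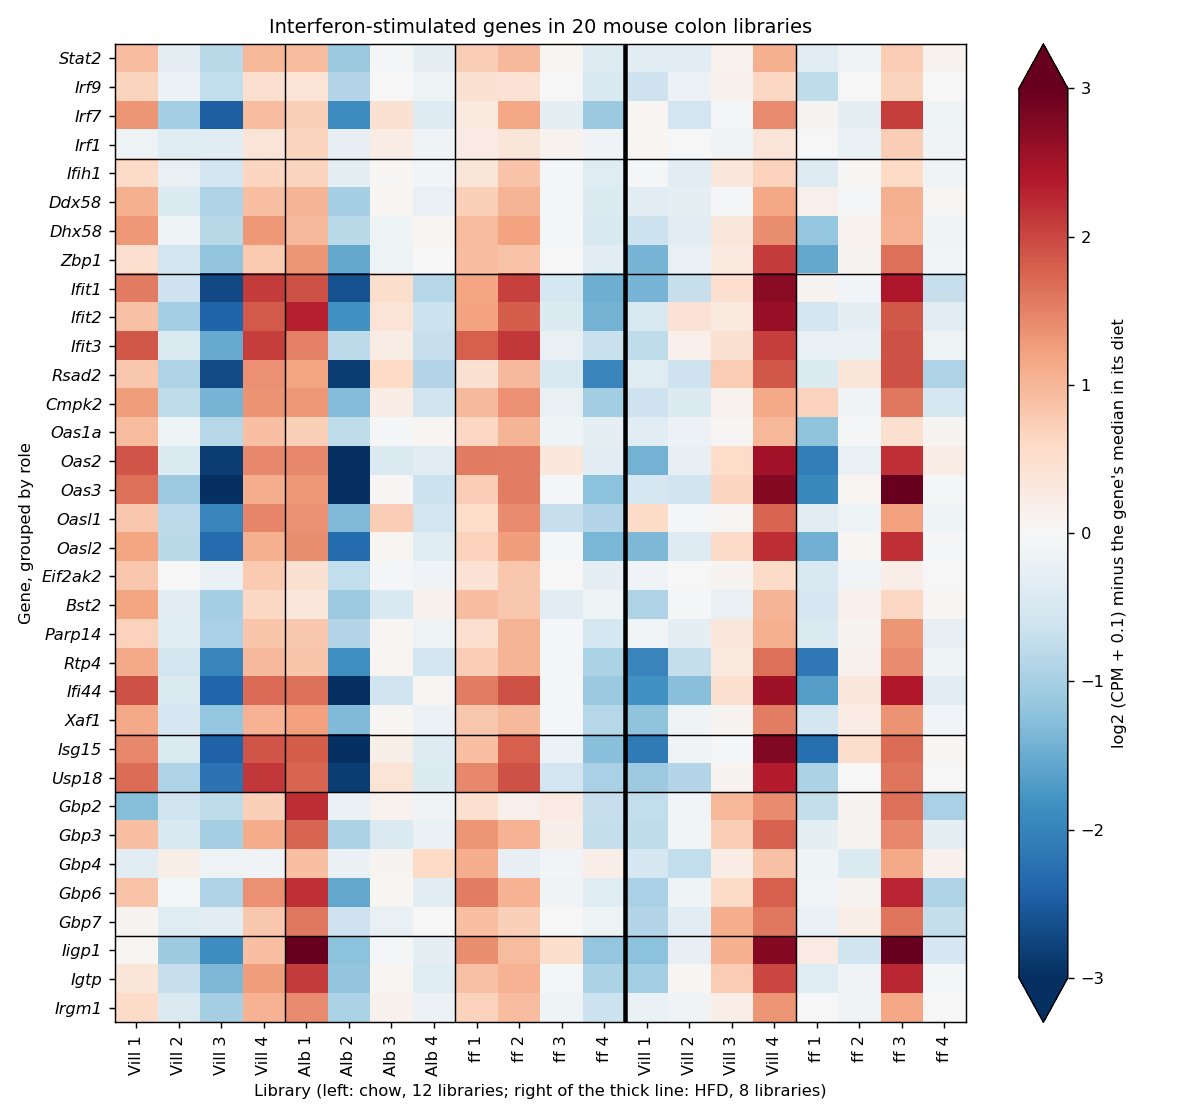
Heat map of the 34 genes (rows, by role) in 20 libraries (columns), coloured by log2 of CPM plus 0.1 minus the median of the gene within its diet, from 3 below to 3 above. Columns that are red nearly throughout, such as chow Alb 1, HFD Vill 4 and the library labelled HFD ff 3, stand beside columns that are blue nearly throughout, such as chow Vill 3 and chow Alb 2, within the same group.

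Single libraries carried nearly the whole list together. Chow Alb 1 was the highest of the 4 Alb libraries for 34 of 34 genes, where it was highest for 22.3% of all genes, and chow Alb 2 was the lowest for 34 of 34 (26.8% of all genes). HFD Vill 4 was the highest of its group for 34 of 34 genes (22.6% of all genes), and so was the library labelled HFD ff 3 (24.3% of all genes). In chow Vill the highest library was Vill 4 for 20 genes (23.9% of all genes) and Vill 1 for 13 (26.3%). Vill 3 was the lowest for 30 (29.2% of all genes). In chow ff the highest was ff 2 for 24 genes (31.2% of all genes) and ff 1 for 10 (18.1%). The library ff 4 was the lowest for 32 (23.2% of all genes). All 34 genes are taken from the same libraries, so these counts describe libraries and are not independent observations.

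Summed over the 34 genes, the level was 4659, 1659, 991 and 4948 CPM in chow Vill libraries 1 to 4, 5669, 1041, 2597 and 1987 CPM in chow Alb and 3894, 5149, 2248 and 1475 CPM in chow ff. On HFD the sums were 727, 780.3, 1061 and 2242 CPM in Vill and 684, 876, 2187 and 836 CPM in ff. Each chow group held libraries with sums 3 or more times as high as others of the same group. The mean log2 level over the 34 genes was 5.63 ± 1.22 in chow Vill, 5.53 ± 1.16 in chow Alb, 5.91 ± 0.86 in chow ff, 4.23 ± 1.05 in HFD Vill and 4.16 ± 0.96 in HFD ff (SD, n = 4 each).

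Per kilobase of gene, the chow median was highest for Irf7, at 67.1 CPM per kb, followed by Isg15 at 57.7 and Oas1a at 55.5. It was lowest for Gbp4 at 1.22 and Gbp6 at 0.605 CPM per kb. On HFD the order began with Irf1 at 29.8 and Oas1a at 29.7 CPM per kb, and it ended with the same Gbp4 at 0.602 and Gbp6 at 0.286. The spread of each gene over libraries is described next, and no test was made of neighbours in these orders.

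The transcription factors carry the signal into the nucleus. Irf7, the factor that amplifies type I interferon production, stood at 625, 123, 44.8 and 479 CPM in chow Vill libraries 1 to 4, 404, 66.7, 338 and 191 CPM in chow Alb and 305, 551, 201 and 115 CPM in chow ff. HFD values of Irf7 were 49.4, 31.7, 45.1 and 125 CPM in Vill and 49.9, 39.4, 199 and 42.6 CPM in ff. Chow Vill held both the highest and the lowest chow library, and on HFD the library labelled ff 3 stood above the other 7, so the groups overlapped on both diets. Irf1, which interferon gamma induces and which switches on many GTPase genes, stood at 144, 124, 128 and 209 CPM in chow Vill, 251, 135, 186 and 146 CPM in chow Alb and 187, 203, 172 and 147 CPM in chow ff. HFD values of Irf1 were 123, 119, 111 and 155 CPM in Vill and 118, 102, 196 and 109.8 CPM in ff. Irf1 was among the steadiest of the 34 genes, with 3 of 4 chow Vill libraries below every chow ff library and Vill 4 above all of them. Stat2 and Irf9, parts of the ISRE-binding complex, ranged from 42.1 to 182 CPM and from 47.6 to 139 CPM over the chow libraries.

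Sensors detect foreign nucleic acid in the cytosol. Ifih1, the long double-stranded RNA sensor also known as MDA5, stood at 197, 114, 88.8 and 209 CPM in chow Vill, 209.9, 110.1, 136 and 125 CPM in chow Alb and 172, 241, 130.3 and 103 CPM in chow ff. HFD values of Ifih1 were 83.2, 67.5, 107 and 138 CPM in Vill and 64.7, 86.6, 128 and 78.9 CPM in ff. Chow ff 2 was the highest library and chow Vill 3 the lowest on chow, with the groups overlapping. Zbp1, which binds Z-form nucleic acid and can start necroptosis, stood at 115, 56.2, 36.5 and 142 CPM in chow Vill, 209, 28.3, 74.9 and 82.5 CPM in chow Alb and 156, 149.8, 83.1 and 66.8 CPM in chow ff. HFD values of Zbp1 were 6.27, 14.1, 20.2 and 71.4 CPM in Vill and 5.68, 17.6, 51.8 and 15.6 CPM in ff. Alb 1 was highest on chow and Vill 4 on HFD. Ddx58, the sensor known as RIG-I, and Dhx58, its relative LGP2, ranged from 20.5 to 84.8 CPM and from 12.2 to 54.4 CPM on chow.

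The Ifit proteins bind foreign RNA and block its translation, and they showed some of the widest swings between libraries. Ifit1 stood at 233, 51.5, 11.98 and 335 CPM in chow Vill, 297, 12.9, 114 and 43.3 CPM in chow Alb and 179, 326, 54.8 and 28.7 CPM in chow ff. HFD values of Ifit1 were 5.67, 9.37, 21.4 and 100.05 CPM in Vill and 16.1, 14.2, 82.4 and 9.40 CPM in ff. Within chow ff alone, the highest library of Ifit1 was 11.4 times the lowest, the widest such ratio of the 34 genes in that group. Ifit2 stood at 65.4, 17.5, 6.61 and 127 CPM in chow Vill, 178, 10.04, 47.5 and 22.8 CPM in chow Alb and 81.8, 126, 26.6 and 13.3 CPM in chow ff. HFD values of Ifit2 were 8.01, 14.98, 13.6 and 69.1 CPM in Vill and 7.52, 9.13, 40.8 and 8.74 CPM in ff. Alb 1 led on chow and Vill 4 on HFD, with the library labelled ff 3 next. Ifit3 stood at 55.3, 11.3, 5.23 and 63.9 CPM in chow Vill, 43.2, 8.80, 17.7 and 9.35 CPM in chow Alb and 52.8, 66.2, 13.02 and 9.51 CPM in chow ff. HFD values of Ifit3 were 3.49, 6.62, 8.19 and 25.5 CPM in Vill and 5.11, 5.19, 22.7 and 5.38 CPM in ff. For Ifit3 the leading chow libraries were ff 2 and Vill 4, and the groups overlapped on both diets.

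The Oas proteins make the small RNA messenger that activates RNase L. Oas3 stood at 273, 40.5, 6.19 and 183 CPM in chow Vill, 215, 7.78, 88.9 and 54.9 CPM in chow Alb and 144, 252, 84.2 and 36.7 CPM in chow ff. HFD values of Oas3 were 4.69, 4.46, 10.7 and 46.5 CPM in Vill and 1.70, 7.14, 66.3 and 6.55 CPM in ff. Its highest chow Vill library was 44.1 times its lowest and its highest HFD ff library 38.9 times its lowest, the widest ratios of the 34 genes in those groups. Oas1a, a short family member, stood at 204, 95.5, 58.2 and 195 CPM in chow Vill, 171, 61.6, 100.3 and 109 CPM in chow Alb and 162, 212, 95.2 and 85.4 CPM in chow ff. HFD values of Oas1a were 43.98, 49.9, 57.3 and 111 CPM in Vill and 24.2, 54.6, 78.1 and 59.2 CPM in ff. Oas1a swung less than Oas3 did, and Vill 4 was its highest HFD library. Oas2 differed up to 32.4-fold between the highest and the lowest chow Alb library, the widest ratio of the 34 genes in that group.

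Oasl1 and Oasl2 are the Oas-like genes, and mouse Oasl1 is known to restrain translation of Irf7. Oasl1 stood at 113, 37.3, 16.3 and 177 CPM in chow Vill, 167, 25.7, 107 and 43.9 CPM in chow Alb and 94.4, 172, 39.97 and 34.9 CPM in chow ff. HFD values of Oasl1 were 23.98, 15.7, 16.5 and 54.6 CPM in Vill and 12.9, 14.4, 37.7 and 14.8 CPM in ff. All groups overlapped, with chow Vill 4, ff 2 and Alb 1 close together at the top. Oasl2 stood at 559.7, 139, 49.5 and 514 CPM in chow Vill, 641, 49.2, 256 and 190.2 CPM in chow Alb and 394, 582, 235 and 94.2 CPM in chow ff. HFD values of Oasl2 were 14.3, 27.98, 54.6 and 172 CPM in Vill and 13.5, 37.4, 169 and 36.01 CPM in ff. Vill 4 and the library labelled ff 3 stood close together above the other HFD libraries of Oasl2.

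Other effectors act on translation, membranes and nucleotides. Eif2ak2, the kinase PKR that halts translation on sensing double-stranded RNA, stood at 126, 72.2, 63.3 and 124 CPM in chow Vill, 100.1, 43.3, 69.7 and 66.95 CPM in chow Alb and 97.8, 126, 72.7 and 59.03 CPM in chow ff. HFD values of Eif2ak2 were 73.5, 77.3, 83.6 and 117 CPM in Vill and 57.1, 74.1, 90.4 and 79.8 CPM in ff. Eif2ak2 had the narrowest spread of the 34 genes in HFD ff, where its highest library was 1.58 times its lowest. Bst2, tetherin, which holds budding virus at the cell surface, stood at 79.00, 28.3, 17.4 and 54.02 CPM in chow Vill, 43.5, 16.5, 25.4 and 38.5 CPM in chow Alb and 66.2, 61.5, 27.7 and 31.8 CPM in chow ff. HFD values of Bst2 were 7.90, 14.9, 12.9 and 30.6 CPM in Vill and 10.6, 16.97, 23.2 and 15.4 CPM in ff. Chow Vill 1 was the highest library of Bst2 and Alb 2 the lowest chow library. Cmpk2, a mitochondrial nucleotide kinase encoded beside Rsad2, stood at 70.3, 17.3, 11.1 and 75.2 CPM in chow Vill, 72.9, 11.9, 34.1 and 19.2 CPM in chow Alb and 57.99, 75.6, 25.3 and 14.3 CPM in chow ff. HFD values of Cmpk2 were 8.01, 9.33, 13.3 and 27.5 CPM in Vill and 20.2, 11.5, 37.02 and 8.56 CPM in ff. For Cmpk2 the HFD library labelled ff 3 was highest, followed by Vill 4 and then the library labelled ff 1. The other effectors, Rsad2 (viperin), the ADP-ribosyltransferase Parp14, Rtp4, Ifi44 and the XIAP antagonist Xaf1, had chow medians from 22.0 to 181 CPM.

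Isg15 is a ubiquitin-like protein attached to other proteins, and Usp18 removes it and dampens the type I receptor. Isg15 stood at 109.7, 29.6, 7.40 and 148 CPM in chow Vill, 142, 4.84, 45.2 and 30.99 CPM in chow Alb and 75.5, 139.5, 35.9 and 16.8 CPM in chow ff. HFD values of Isg15 were 1.74, 7.35, 7.61 and 54.8 CPM in Vill and 1.57, 11.5, 25.6 and 8.18 CPM in ff. In HFD Vill the highest library of Isg15 was 31.5 times the lowest, the widest ratio of the 34 genes in that group. Usp18 ran from 2.21 CPM in chow Alb 2 to 72.0 CPM in chow Vill 4.

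The guanylate-binding proteins and immunity-related GTPases coat vacuoles that hold bacteria or parasites, and interferon gamma is their best known inducer. Gbp2 stood at 32.7, 52.3, 46.9 and 131 CPM in chow Vill, 370.3, 69.9, 86.4 and 73.5 CPM in chow Alb and 113, 88.9, 93.9 and 49.4 CPM in chow ff. HFD values of Gbp2 were 12.3, 19.4, 41.2 and 55.3 CPM in Vill and 12.5, 21.8, 64.6 and 10.4 CPM in ff. Alb 1 stood far above every other library, and the other 3 Alb libraries lay within the chow ff range. Gbp4 stood at 7.20, 10.4, 8.16 and 8.47 CPM in chow Vill, 17.2, 7.90, 9.76 and 13.97 CPM in chow Alb and 19.7, 7.73, 8.59 and 10.6 CPM in chow ff. HFD values of Gbp4 were 3.16, 2.66, 5.27 and 8.38 CPM in Vill and 4.11, 3.35, 9.94 and 4.91 CPM in ff. Gbp4 varied least of the 34 genes among chow Vill libraries, where the highest was 1.44 times the lowest, and chow ff 1 was its highest library. Gbp3, Gbp6 and Gbp7 had chow ranges of 14.8 to 98.3, 1.18 to 16.7 and 22.0 to 100.8 CPM, each with Alb 1 at the top.

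Iigp1, an effector GTPase that disrupts parasite vacuoles, showed the largest single-library excess on chow. It stood at 24.5, 11.3, 6.44 and 44.4 CPM in chow Vill, 258, 9.96, 22.8 and 19.3 CPM in chow Alb and 62.2, 45.98, 33.8 and 10.6 CPM in chow ff. HFD values of Iigp1 were 1.96, 4.00, 10.00 and 32.8 CPM in Vill and 5.64, 3.08, 48.1 and 3.32 CPM in ff. Without Alb 1, the highest chow library of Iigp1 was ff 1. Irgm1, which regulates the effector GTPases, stood at 124, 61.8, 41.6 and 170.1 CPM in chow Vill, 221, 43.1, 90.9 and 73.1 CPM in chow Alb and 134, 159, 75.8 and 53.2 CPM in chow ff. HFD values of Irgm1 were 38.7, 41.6, 51.3 and 112 CPM in Vill and 45.2, 41.5, 99.7 and 44.5 CPM in ff. Irgm1 and its relative Igtp, at 14.5 to 158 CPM on chow, also had Alb 1 as their highest chow library.

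**Figure D2:**
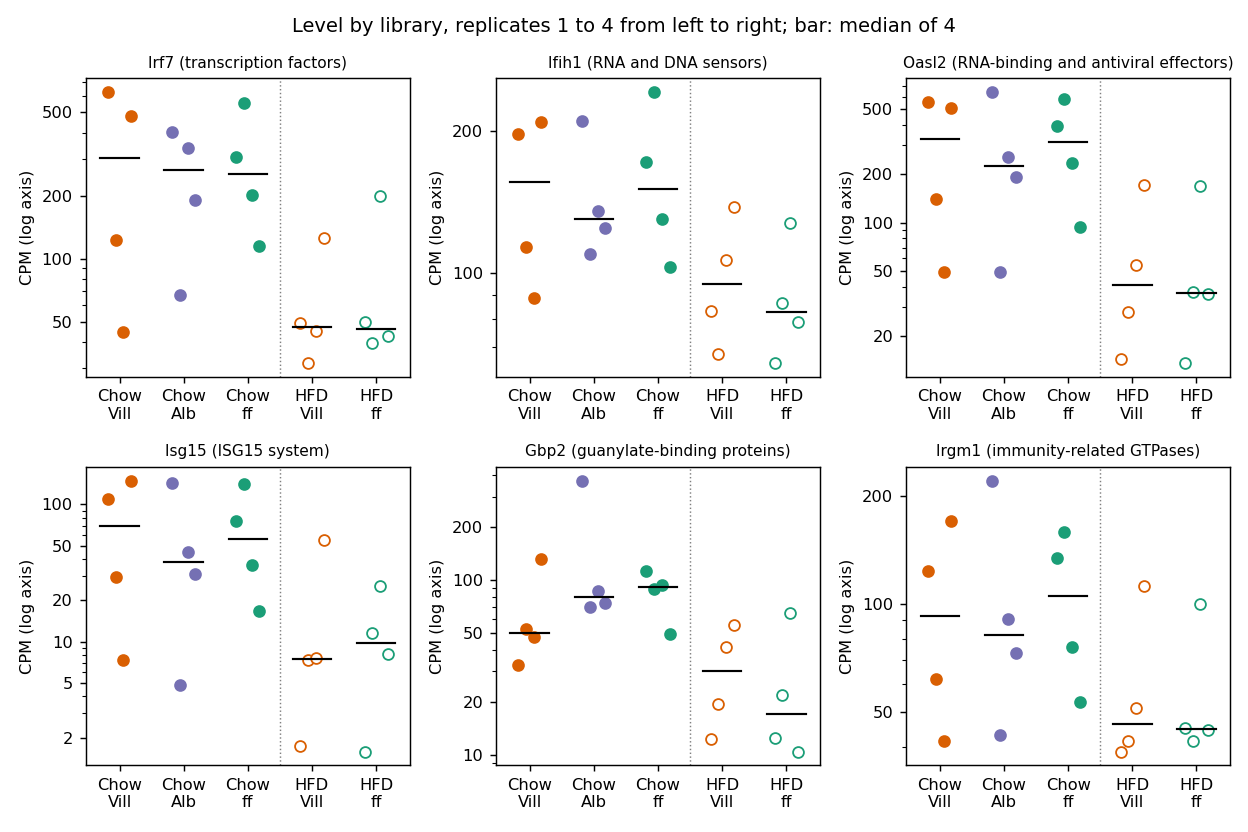
CPM of the most abundant gene of each role (log axes), 1 point per library in replicate order, bars at the median of 4 libraries, chow filled and HFD open. In all 6 panels the points of the chow groups overlap, and on HFD the points of Vill and ff overlap.

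The antiviral effectors and the GTPases differed in their leading libraries, while the lower chow libraries came in much the same order for both. The median rank on chow was 1 for GTPases and 3 for effectors in Alb 1, and 2 and 5 in ff 1. It was 5 and 2.5 in Vill 1, 4 and 2 in ff 2, and 3 for both in Vill 4. In Alb 2 it was 11 for both, and in Vill 3 it was 11.5 and 12. The 8 GTPase genes (5 Gbp and 3 immunity-related) were highest in chow Alb 1 for 7 of 8. The 16 effectors were highest in ff 2 and Vill 1 for 5 each, and in Vill 4 and Alb 1 for 3 each. Of all tested genes, 10.0% were highest in Alb 1, 8.55% in ff 2, 12.4% in Vill 1 and 5.00% in Vill 4. Vill 1 was the lowest of all 12 chow libraries for Gbp2 and Gbp4, although it was the highest for 9 of the 34 genes. The mean log2 level of the GTPases minus that of the effectors was -2.17 in Vill 1, -0.38 in Alb 1 and -1.74 in ff 2. It was nearest to 0 on chow in Alb 2 (-0.10) and Vill 3 (-0.13), the libraries with the lowest effector levels on chow. In the library labelled HFD ff 1 it was -0.21. On HFD, the library labelled ff 3 was highest for 6 of 8 GTPases (15.0% of all tested genes). Vill 4 was highest for 12 of 16 effectors (13.1% of all tested genes). Median ranks of GTPases and effectors on HFD were 1 and 2 in the library labelled ff 3, and 2 and 1 in Vill 4. They were 5 and 8 in the library labelled ff 1. No test was made of this ordering, since the libraries were singled out by their values.

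**Figure D3:**
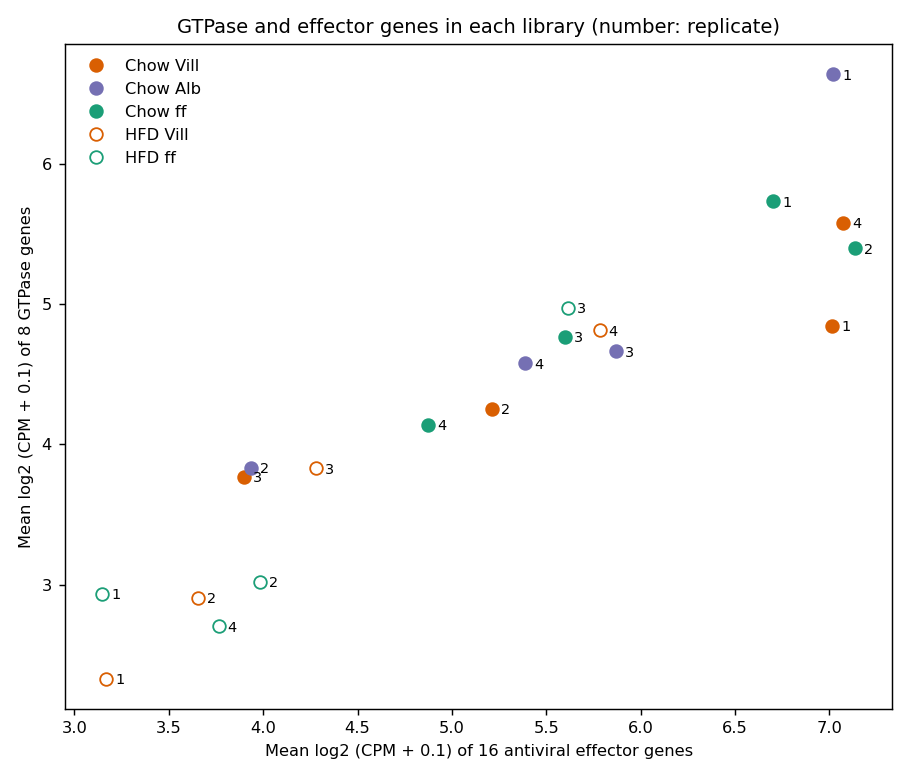
Mean log2 (CPM + 0.1) of 8 GTPase genes (vertical axis) against that of 16 effector genes (horizontal axis), 1 point per library with its replicate number, chow filled and HFD open. Chow Alb 1 lies highest at 6.64, and chow Vill 1, at a similar effector level, lies at 4.84.

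Loss of Pcca in the intestinal epithelium on chow came with no called change of an interferon-stimulated gene. In chow Vill against chow ff, 0 of 34 genes passed an adjusted p of 0.05 in the edgeR quasi-likelihood test with Benjamini-Hochberg adjustment over all genes, where 0.00508% of the 19701 tested genes did (1 gene). None of the 34 had an unadjusted p under 0.05 (1.9% of all tested genes), and DESeq2 and limma-voom each called 0 of 34. The log2 fold change was below 0 for 23 of 34 genes (49.2% of all tested genes), with a median of -0.05 over the 34 and 0.00 over all tested genes. In limma-voom it was below 0 for 33 of 34 genes, with a median of -0.29. In 0 of 34 genes did the Vill and ff libraries separate without overlap, either higher (0.665% of all tested genes) or lower (0.68%).

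Of the 5 smallest p in that comparison, 3 belonged to GTPase genes. Gbp4 had a log2 fold change of -0.45 (-1.13 to 0.24), Irf1 of -0.23 (-0.70 to 0.24) and Iigp1 of -0.82 (-2.94 to 1.30), with 95% intervals in brackets. Zbp1 followed at -0.39 (-1.62 to 0.84) and Gbp2 at -0.39 (-1.66 to 0.88), and every adjusted p of the edgeR test was 1. All 5 Gbp and all 3 immunity-related GTPase genes had values below 0 (medians -0.31 and -0.20), as did 10 of 16 effectors (median -0.03). The fold changes ran from -0.82 for Iigp1 to 0.22 for Rsad2. The median over the 34 genes was above 0 when chow ff 2 (0.24), chow Vill 3 (0.22), chow Vill 2 (0.12) or chow ff 1 (0.07) was left out alone. With Vill 4 left out it was -0.43, and all 34 values were below 0. Without both Vill 1 and ff 2, the libraries with the most small intestine markers on chow, 18 of 34 were below 0 and the median was -0.03.

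The width of these intervals sets what the data can show. The standard error of the log2 fold change had a median of 0.67 over the 34 genes, against 0.26 over all tested genes. All 34 intervals included 0, 23 of 34 included a 2-fold higher level in Vill and 29 of 34 included a 2-fold lower level. Changes of that size were therefore not detectable for most of these genes with 4 libraries a group.

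Loss of Pcca in the liver gave the same count in the colon. In chow Alb against chow ff, 0 of 34 genes passed an adjusted p of 0.05 in the edgeR test (0% of 19701 tested genes) and 0 had an unadjusted p under 0.05 (4.4% of all tested genes). DESeq2 and limma-voom each called 0 of 34. The log2 fold change was below 0 for 23 of 34 genes (49.9% of all tested genes), with a median of -0.24 over the 34 and 0.00 over all. In limma-voom it was below 0 for 32 of 34, with a median of -0.37. No gene separated the groups, higher (1.23% of all tested genes) or lower (1.59%). Effectors had values below 0 in 13 of 16 cases (median -0.33), and the immunity-related GTPases had values above 0 in 3 of 3 (median 0.28). Of the 5 Gbp genes 4 had values above 0 (median 0.02). In limma-voom, by contrast, 6 of the 8 GTPases of both kinds were below 0 (median -0.11).

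Gbp2 had the smallest p of that comparison, with a log2 fold change of 0.80 (-0.47 to 2.07), and averaged 150.0 ± 147 CPM in Alb and 86.2 ± 26.6 CPM in ff (SD, n = 4 each). Bst2 followed at -0.60 (-1.62 to 0.43), Eif2ak2 at -0.35 (-1.03 to 0.34), Iigp1 at 1.02 (-1.10 to 3.14) and Ifit3 at -0.84 (-2.70 to 1.02). Their adjusted p in the edgeR test was 0.99 throughout. Both Gbp2 and Iigp1 rest on Alb 1, without which the Gbp2 value was -0.17. Without Alb 1 all 34 genes had values below 0, with a median of -0.83. The median was above 0 without chow ff 2 (0.10) or without chow Alb 2 (0.05).

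Vill and Alb mice differ in where Pcca was deleted, and both were on chow. In chow Vill against chow Alb, 0 of 34 genes passed an adjusted p of 0.05 in the edgeR test, where 0.00508% of the 19701 tested genes did (1 gene). None of the 34 had an unadjusted p under 0.05 (8.87% of all tested genes), and DESeq2 and limma-voom each called 0 of 34. The log2 fold change was below 0 for 12 of 34 genes (47.2% of all tested genes), with a median of 0.23 over the 34 and 0.02 over all. No gene separated the groups, higher (2.59% of all tested genes) or lower (2.12%). The 3 chow comparisons share libraries, and their values are not independent of each other.

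With all libraries kept, most effectors and all GTPases differed in sign in that comparison. Of 16 effectors 14 had values above 0 (median 0.38), and of the 8 GTPases all 8 had values below 0 (medians -0.33 for the Gbp genes and -0.48 for the others). In limma-voom 6 of the 8 GTPases were below 0 (median -0.23). Gbp2 had the smallest p, with a log2 fold change of -1.19 (-2.47 to 0.09) and an adjusted p of 0.591 in the edgeR test. It averaged 65.7 ± 44.3 CPM in Vill and 150.0 ± 147 CPM in Alb (SD, n = 4 each). Iigp1 followed at -1.84 (-4.01 to 0.33), with an adjusted p of 0.618 in the edgeR test, then Gbp4 at -0.51 (-1.20 to 0.17), Eif2ak2 at 0.46 (-0.22 to 1.15) and Irf1 at -0.25 (-0.72 to 0.22). Without Alb 1, 6 of the 8 GTPases (median 0.46) and all 16 effectors (median 0.94) had values above 0, and the split was lost. Without Vill 1, or without Vill 4, the effectors were at 8 of 16 above 0. The difference between the gene classes was not tested. Without Alb 1 the Gbp2 value was -0.22, the Iigp1 value was 0.32 and the median over the 34 genes was 0.76. The median was below 0 without Vill 4 (-0.15), without Vill 1 (-0.10) or without Alb 2 (-0.04). Without both Vill 1 and ff 2 it was -0.08, with 21 of 34 values below 0.

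On HFD the Vill and ff colons again showed no called change. In HFD Vill against HFD ff, 0 of 34 genes passed an adjusted p of 0.05 in the edgeR test, where 0.00564% of the 17715 tested genes did (1 gene). None of the 34 had an unadjusted p under 0.05 (3.45% of all tested genes), and DESeq2 and limma-voom each called 0 of 34. The log2 fold change was below 0 for 11 of 34 genes (50.7% of all tested genes), with a median of 0.10 over the 34 and 0.00 over all. No gene separated the groups, higher (1.22% of all tested genes) or lower (0.909%). All 34 intervals included 0, 24 included a 2-fold higher level in Vill and 22 a 2-fold lower level.

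Eif2ak2 had the smallest p on HFD, with a log2 fold change of 0.22 (-0.20 to 0.64) and an adjusted p of 0.932 in the edgeR test. Oasl1 followed at 0.48 (-0.63 to 1.59), Ifit2 at 0.68 (-1.11 to 2.47), Cmpk2 at -0.41 (-1.60 to 0.79) and Oas1a at 0.28 (-0.60 to 1.16). Both Isg15 and Usp18 had values above 0 (median 0.50), as did 13 of 16 effectors (median 0.11). Single libraries moved the whole list. Without Vill 4, 33 of 34 genes had values below 0 and the median was -0.59, and without the library labelled ff 3, all 34 had values above 0 and the median was 0.88. The median also fell below 0 without the library labelled ff 1 (-0.07, 25 of 34 below 0) or ff 4 (-0.03, 21 of 34 below 0). Without both libraries rich in small intestine markers, labelled ff 1 and ff 3, all 34 values were above 0 with a median of 0.79, and 0 of 34 genes passed an adjusted p of 0.05 in the edgeR test.

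**Figure D4:**
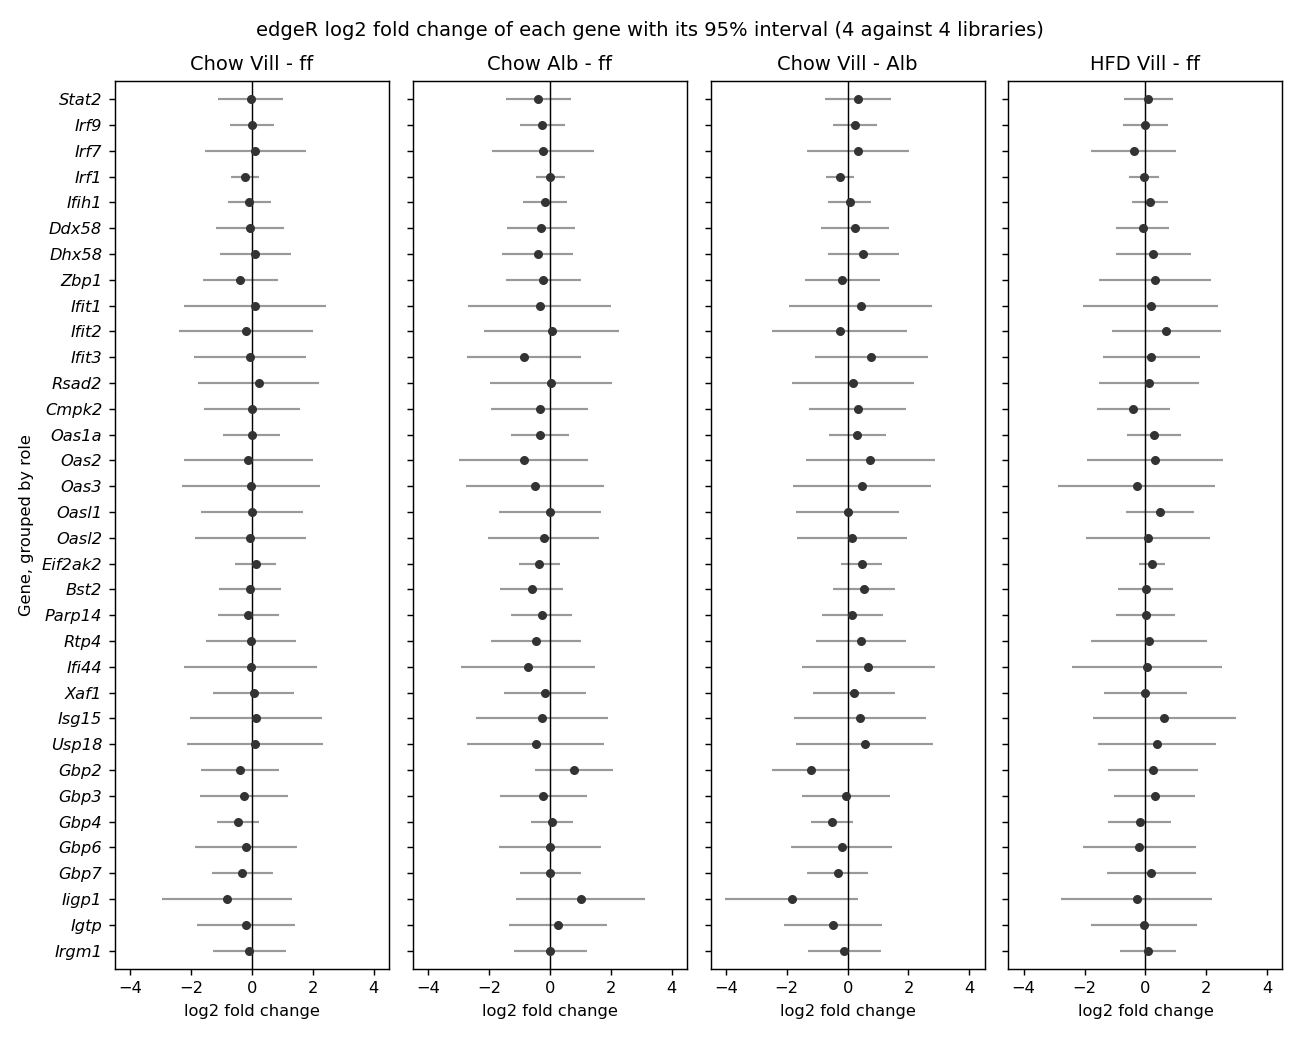
edgeR log2 fold change (points) and 95% interval (bars) of each of the 34 genes in the 4 comparisons of 2 groups, genes by role from top to bottom. Every interval crosses 0, and Ifit1, Oas3, Ifi44 and Isg15 are among the 6 widest bars of each panel.

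The Vill effect was also compared between diets in a fit of the 16 Vill and ff libraries. For the HFD effect minus the chow effect, 0 of 34 genes passed an adjusted p of 0.05 in the edgeR test (0% of 19516 tested genes) and 0 had an unadjusted p under 0.05 (2.54% of all tested genes). DESeq2 and limma-voom each called 0 of 34. The difference was below 0 for 7 of 34 genes (51.9% of all tested genes), with a median of 0.16 over the 34 and -0.01 over all. In limma-voom 33 of 34 differences were above 0, with a median of 0.44. Gbp2 had the smallest p, with a difference of 0.63 (-1.16 to 2.43) and an adjusted p of 1 in the edgeR test. The median was below 0 without chow ff 2 (-0.12), chow Vill 3 (-0.09), chow Vill 2 (-0.03) or the library labelled HFD ff 1 (-0.0024). Without HFD Vill 4 it was -0.47 with 30 of 34 below 0, and without the library labelled HFD ff 3 it was 0.92 with 0 below 0. Without the libraries labelled HFD ff 1 and ff 3 together it was 0.71, and without chow Vill 1 and ff 2 together it was 0.12 with 28 of 34 above 0.

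**Figure D5:**
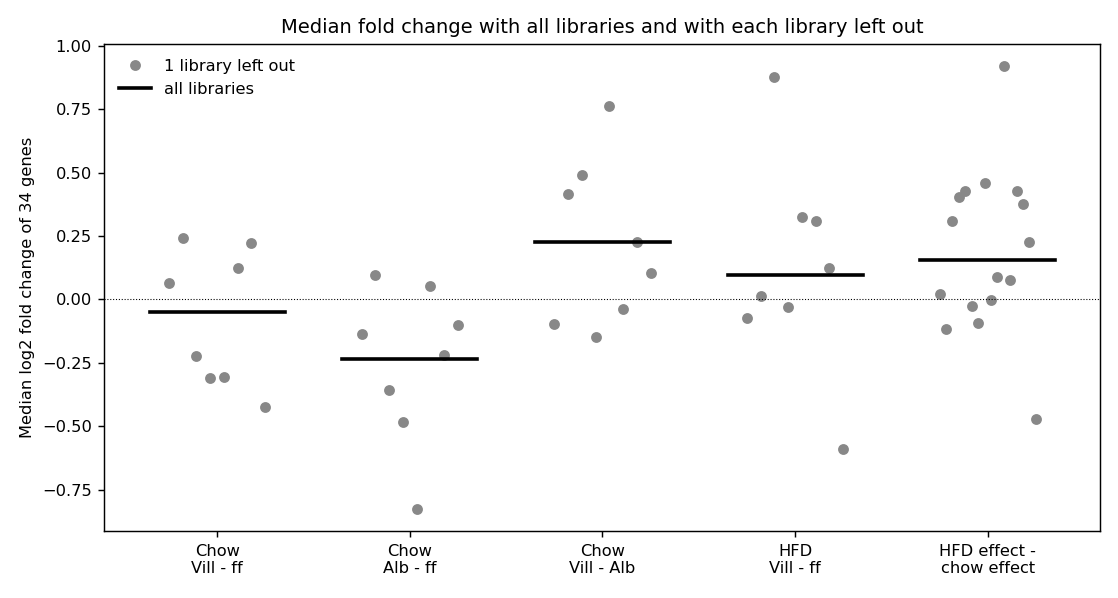
Median log2 fold change over the 34 genes in 5 comparisons, with all libraries (black bars) and with each single library left out (grey points). The points of every comparison lie on both sides of 0, from -0.59 to 0.88 for HFD Vill against ff.

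The authors' deposited table also gave no adjusted p under 0.05 for any of the 34 genes in the 4 comparisons of 2 groups. Its lowest adjusted p was 0.621, for chow Vill against Alb.

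Across diets the list was lower on HFD, described here without a test because each table was scaled on its own and diet, age and possibly sex differ together. The HFD median was below the chow median for 33 of 34 genes, and the chow median was the higher one for 46.2% of 17553 genes measured on both diets. The chow median of a gene was in the median case 3.19 times its HFD median. Without the HFD libraries labelled ff 1 and ff 3 the count was again 33 of 34 and the ratio 3.27, and without chow Vill 1 and ff 2 as well it was 33 of 34 and 2.63. The ratio was largest for Oas3, at 12.6, and smallest for Eif2ak2, at 0.922. The highest HFD libraries reached into the chow range, since Vill 4 and the library labelled ff 3 summed to 2242 and 2187 CPM, above 5 of the 12 chow libraries. Cell type markers differed between the diets too. The 11 B and plasma cell markers summed to 118 to 709.6 CPM on HFD and 901 to 4607 CPM on chow, and the 8 adipocyte markers to 88.3 to 173 CPM on HFD and 174 to 443 CPM on chow, without overlap. Macrophage markers summed to 87.4 to 196 CPM on HFD and 128 to 447 CPM on chow, and the 9 fibroblast markers to 343 to 742 CPM on HFD and 721 to 1498 CPM on chow. These and all other marker lists overlapped between diets. Median sums were higher on HFD for enteroendocrine (428 against 344 CPM), small intestine (843 against 760) and neuron and glia markers (126 against 114). So were those of red blood cell (8.55 against 5.55) and squamous markers (2.29 against 2.01, 7 of 9 measured on HFD). Lymphocyte markers (T, NK and intraepithelial) had medians of 18.5 CPM on HFD and 45.8 CPM on chow. The part of these cells in the lower level of the 34 genes was not tested.

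The other genes of the pathway were examined beside the 34, from lists of 108 genes. Of the 94, 94, 94, 92 and 93 of them tested in chow Vill against ff, chow Alb against ff, chow Vill against Alb, HFD Vill against ff and the difference between diets, 0 passed an adjusted p of 0.05 in any edgeR test. At an unadjusted p under 0.05, Gbp5 was lower in chow Vill than in chow ff (1 of 94, against 1.9% of all tested genes). Mavs was higher in chow Vill than in chow Alb (1 of 94, against 8.87% of all tested genes). Stat3 was higher in HFD Vill than in HFD ff (1 of 92, against 3.45% of all tested genes). In chow Alb against ff the count was 0 of 94, against 4.4% of all tested genes. These counts lay below those shares. Gbp5, a GTPase of the same family as Gbp2, had a log2 fold change of -0.92 (-1.76 to -0.09), Mavs, the mitochondrial adaptor of the RNA sensors, of 0.22 (0.03 to 0.41), and Stat3, which relays IL-6 family and IL-22 signals, of 0.37 (0.01 to 0.72). Gbp5, Mavs and Stat3 each had an adjusted p of 0.551 or more in the edgeR test. In the difference between diets, 3 of 93 pathway genes had an unadjusted p under 0.05, all above 0, against 2.54% of all tested genes. They were Stat3 at 0.53 (0.09 to 0.97), the type III interferon receptor chain Ifnlr1 at 0.52 (0.01 to 1.02) and the feedback inhibitor Socs3 at 1.49 (0.00 to 2.98).

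Interferon ligands were at or near the limit of detection. Ifnb1, Ifna1, Ifna2, Ifna4 and Ifne had 0 reads in all 12 chow libraries. A count of 0 in 1 library taken alone allows up to 3 reads by counting error, and 0 in all 12 together allows fewer per library. They have no values here on HFD, where 5 of the 12 genes on the ligand list were among the genes counted. Ifnl2 had 3 reads and Ifnl3 had 4 reads over the 12 chow libraries, and Ifnk had 38. Ifng, the gene of interferon gamma, had 39 reads over the chow libraries, none of them in Alb 1 or any other Alb library, and at most 0.268 CPM (Vill 4). On HFD Ifng had 8 reads over 8 libraries, with 0.181 CPM in Vill 4 and 0.0585 CPM in the library labelled ff 3. Il18, an epithelial cytokine that induces interferon gamma, was abundant at 10.7, 142, 108 and 29.1 CPM in chow Vill, 21.01, 92.9, 25.5 and 92.1 CPM in chow Alb and 45.98, 12.7, 95.4 and 96.3 CPM in chow ff. HFD values of Il18 were 42.3, 92.7, 111 and 61.6 CPM in Vill and 7.30, 134, 12.7 and 74.03 CPM in ff. On chow the 5 libraries with the lowest Il18 (Vill 1, ff 2, Alb 1, Alb 3 and Vill 4) were among those with the 6 highest sums of the 34 genes, whereas on HFD the library labelled ff 1 had both the lowest Il18 and the lowest sum. The lowest Il18 on each diet was in the libraries richest in small intestine markers, chow Vill 1 and ff 2 and those labelled HFD ff 1 and ff 3.

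The receptor chains Ifnar1, Ifngr1 and Ifnlr1 were steady by comparison on chow. Ifnar1, a chain of the type I receptor, ranged from 49.5 to 54.4 CPM over the 12 chow libraries, and the interferon gamma receptor gene Ifngr1 from 305 to 464 CPM. Ifnlr1, the private chain of the type III receptor, ranged from 20.7 to 35.7 CPM on chow and 18.1 to 31.0 CPM on HFD. Their highest chow library was 1.10, 1.52 and 1.73 times the lowest. Socs3 had a log2 fold change of -0.90 (-2.01 to 0.20) in chow Vill against ff and 0.58 (-0.24 to 1.40) in HFD Vill against ff. Slfn8 and Tgtp1, both interferon-inducible, had values of -0.93 (-2.03 to 0.18) in chow Vill against ff and -1.47 (-3.04 to 0.11) in chow Vill against Alb. Gbp8, Casp1 and Ifi27 were the remaining genes among the 3 smallest p of a comparison, with -1.71 (-3.63 to 0.21) for Gbp8 in HFD Vill against ff and -0.22 (-0.53 to 0.09) and -0.22 (-0.51 to 0.08) for Casp1 and Ifi27 in chow Alb against ff.

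A further 60 interferon targets outside the 34 were ranked over the same libraries, with no test of likeness. On chow, Alb 1 was the highest library for 24 of 60 (10.03% of all tested genes) and ff 1 for 15 (6.05%). The lowest were Vill 3 for 25 (15.53% of all tested genes) and Alb 2 for 19 (10.12%). On HFD, the library labelled ff 3 was the highest for 31 of 58 (15.0% of all tested genes) and Vill 4 for 23 (13.1%). Among the 34 genes, by contrast, Vill 4 was the highest for 21 and the library labelled ff 3 for 13. In the edgeR test 0 of them passed an adjusted p of 0.05 in any comparison, and their median log2 fold changes were -0.15 in chow Vill against ff, -0.17 in chow Alb against ff, -0.03 in chow Vill against Alb and -0.05 in HFD Vill against ff.

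Lymphocyte markers were highest in the leading HFD libraries, while on chow lymphocyte and macrophage markers are given only as group ranges. The 16 markers of T, NK and intraepithelial lymphocytes, all measured and none at 0 in a whole group, summed to 33.2 to 68.9 CPM in chow Vill, 16.2 to 51.2 CPM in chow Alb and 32.9 to 57.4 CPM in chow ff. Chow Alb holds Alb 1, the library with the highest sum of the 34 genes. Its highest lymphocyte value nevertheless lay below those of chow Vill and chow ff. On HFD the same markers summed to 6.39 to 47.0 CPM in Vill and 13.9 to 139 CPM in ff, where the highest values were those of Vill 4 and of the library labelled ff 3. The 10 macrophage markers summed to 128 to 392 CPM in chow Vill, 187 to 447 CPM in chow Alb and 182 to 411 CPM in chow ff. The 14 small intestine markers were high in chow Vill 1 and ff 2 and in the libraries labelled HFD ff 1 and ff 3, of which the library labelled HFD ff 1 had the lowest sum of the 34 genes on HFD. Smooth muscle markers summed to 12636 CPM in chow Alb 3 and 1146 CPM in chow Vill 3, and squamous epithelium markers to 93.6 CPM in chow Alb 2, against at most 3.69 CPM in every other chow library. The part of these cell types in the levels of the 34 genes was not tested.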

How the data were processed

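The members and the lists beside them were chosen with earlier results of these data known. Each deposited table lists, per its file headers, raw read counts of genes in columns of single libraries. Aligners and tools appear in the submitters' processing notes without a stated role. They are edgeR 3.22.5, DESeq2 1.20.0, featureCounts 1.5.0-p3 and HISAT2 2.0.5, beside the mm39 build, and the annotation release is not given in the sources used here. The labels' protocols describe both stranded and unstranded library making, so reads of a gene and of an overlapping antisense gene may not be separable. The authors' deposited tables also give log2 fold changes and p-values with adjusted p-values per comparison, used here for 1 comparison of calls. A further 28 per-sample columns were not used.

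The main test was the quasi-likelihood F test of edgeR 4.0.16 in R 4.3.3 on the counts, after its default expression filter and with TMM scaling, in 1 fit of 12 chow libraries, 1 of 8 HFD libraries and 1 of 16 Vill and ff libraries for the difference between diets. P-values were adjusted by Benjamini-Hochberg over all genes tested, with a threshold of 0.05, and the fit was tested on simulated data. CPM are on the TMM scale of each diet's table, and log2 levels use CPM plus 0.1. Alternatives were median-ratio and upper-quartile scaling, no filter, a mean of at least 1 CPM, DESeq2 1.42.0, limma-voom (limma 3.58.1), the 2 groups alone, the replicate number as a block, each library left out, HFD without ff 1 and 3 and, chosen after seeing the data, chow without Vill 1 and ff 2. Values in every library are given for the 5 genes with the smallest p in each comparison of 2 groups, the most abundant gene of each role and the 4 largest single-library excesses, 19 genes in all, and the pathway genes named are the 3 smallest p of each comparison, the ligands and the receptors, and 1 further pathway gene is not reported here. Mean ± SD and intervals cover 4 libraries a group, and read depth limits genes at a few reads.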

Additional observations from a re-analysis of the deposited data

Results flagged for a closer look

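Each of the 34 genes was checked in each group of 4 libraries for a library whose gap to the nearest of the others took a share of the group's range above Dixon's 95% critical value for 4 values. Of the 170 gene and group pairs, 27 (15.9%) met this on the CPM scale, against 6% of the pairs of all tested genes, and chance flags about 1 in 20 groups. On the log2 scale 7 of the 170 pairs (4.12%) met it, against 5.02% for all tested genes, so the count depends on the scale. On that scale 6 of 34 genes met it in HFD ff (4.89% of all tested genes), 1 in chow Alb (4.33%) and 0 in HFD Vill (5.52%). Pairs from the same library are not independent.

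On the CPM scale the library labelled HFD ff 3 stood far above the other HFD ff libraries for 14 genes. These were Irf7 at 198.6 CPM, Irf1 at 196.2, Ddx58 at 45.7, Ifit1 at 82.4, Ifit2 at 40.8, Ifit3 at 22.7, Oas3 at 66.3, Oasl1 at 37.7, Oasl2 at 169, Gbp3 at 24.2, Gbp6 at 8.71, Iigp1 at 48.1, Igtp at 43.3 and Irgm1 at 99.7 CPM. The same library had the highest summed level of T, NK and intraepithelial lymphocyte markers on HFD, at 139 CPM. It also had the highest summed level of small intestine markers on HFD, at 2292 CPM.

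On the CPM scale only, HFD Vill 4 stood apart in its group for 7 genes. These were Ddx58 at 49.0 CPM, Ifit1 at 100.05, Ifit2 at 69.1, Oas3 at 46.5, Isg15 at 54.8, Usp18 at 19.8 and Irgm1 at 112 CPM.

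On the CPM scale chow Alb 1 stood apart in its group for 6 genes, all of them GTPases, against 1 gene flagged in chow Alb on the log2 scale. Gbp2 was at 370.3 CPM, Gbp3 at 98.3, Gbp6 at 16.7, Gbp7 at 100.8, Iigp1 at 258 and Igtp at 158 CPM. No chow Vill or chow ff library met the same condition for any of the 34 genes.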

How the results depend on the processing

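Under every alternative run, 0 of the 34 genes passed an adjusted p of 0.05 in any of the 5 comparisons. The number of all genes called was within 1.5 times the number reported except for chow Vill against ff (2 with no filter, 3 by DESeq2 and 0 with the replicate block), chow Alb against ff (11 by DESeq2), chow Vill against Alb (90 by DESeq2 and 0 with the replicate block) and HFD Vill against ff (2 by DESeq2 and 2 without ff 1 and 3). The number of the 34 genes below 0 moved beyond that limit for chow Alb against ff (14) and chow Vill against Alb (21) without chow Vill 1 and ff 2, for HFD Vill against ff (0) without ff 1 and 3, and for the difference between diets (1 by limma-voom and 0 without HFD ff 1 and 3). The cause was not tested.

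Leaving out 1 library at a time left the number of all genes called at 1 for chow Vill against ff, 0 for chow Alb against ff, 1 for chow Vill against Alb, 1 for HFD Vill against ff and 0 for the difference between diets. The median log2 fold change over the 34 genes ran from -0.43 to 0.24, from -0.83 to 0.10, from -0.15 to 0.76, from -0.59 to 0.88 and from -0.47 to 0.92 in the same order of comparisons. The number of genes below 0 ran from 6 to 34, from 14 to 34, from 3 to 22, from 0 to 33 and from 0 to 30. Of the single genes followed, 4 changed sign: Gbp2 in chow Alb against ff (-0.17 to 1.04), Iigp1 in chow Vill against Alb (-2.49 to 0.32), Oasl1 on HFD (-0.089 to 0.97) and Ifit2 on HFD (-0.43 to 1.64).

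Groups share replicate numbers in the labels. For libraries with the same number, r of the deviations ran from -0.57 to 0.47 over 12 chow pairs and from -0.39 to 0.45 over 4 HFD pairs. These lay within the ranges for libraries with different numbers, -0.61 to 0.62 over 36 chow pairs and -0.49 to 0.51 over 12 HFD pairs. With the replicate block the median over the 34 genes was -0.22 in chow Vill against ff, -0.37 in chow Alb against ff, 0.18 in chow Vill against Alb, 0.03 on HFD and 0.17 for the difference between diets, and 0 of the 34 were called. The within-group SD of the mean log2 level of the list was 1.06. With 4 libraries a group, shifts of the list up to that size, or moderately above it, cannot be resolved.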

Other observations

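Genes of antigen presentation, which interferon gamma is known to induce, were looked at in each library after their values were seen. B2m, the light chain of class I molecules, stood at 1193, 606, 392 and 1062 CPM in chow Vill libraries 1 to 4, 1528, 389.6, 904 and 767 CPM in chow Alb and 1051, 1283, 899 and 575 CPM in chow ff. HFD values of B2m were 213, 277, 392 and 734 CPM in Vill and 495, 361, 1072 and 333 CPM in ff. Nlrc5, the activator of class I genes, stood at 37.1, 15.97, 12.1 and 64.4 CPM in chow Vill, 112, 9.35, 30.3 and 29.1 CPM in chow Alb and 52.1, 52.6, 31.3 and 19.2 CPM in chow ff. HFD values of Nlrc5 were 1.09, 1.88, 7.66 and 23.96 CPM in Vill and 1.84, 4.99, 25.3 and 4.02 CPM in ff. For both genes chow Alb 1 was the highest library and HFD ff 3, as labelled, the highest on HFD.

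Ciita, the activator of class II genes, ordered the chow libraries differently, and its HFD values are not given here. It stood at 5.50, 29.6, 24.3 and 6.90 CPM in chow Vill, 28.4, 11.9, 8.02 and 35.5 CPM in chow Alb and 21.8, 7.07, 14.7 and 36.5 CPM in chow ff. Its highest chow libraries were ff 4 and Alb 4, and Vill 1 was its lowest. These values are given as a description with no test.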
